A study of Drosophila melanogaster with 3 samples.

Results

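Chromatin immunoprecipitation followed by sequencing (ChIP-seq) was used to map where Tinman, an NK-class homeodomain protein of the dorsal mesoderm, sits in the genome of whole Drosophila melanogaster embryos. The results below concern 10 genes of the machinery that gives single embryonic body wall muscles their identity, namely ap, vg, sd, kn, Six4, Poxm, Kr, lms, Ptx1 and eya. An entry of a deposited peak list was taken when its summit lay in the body of one of these genes or within 10 kb on either side, in Ensembl BDGP6 coordinates, which are those of the dm6 build. By this rule 10 of the 5508 peaks that passed the authors' irreproducible discovery rate threshold (IDR peaks) and 111 of the 30000 entries of the list pooled over replicates belonged to the 10 windows. The replicate lists gave 112 of 30000 entries in replicate 1, 134 of 30000 in replicate 2 and 67 of 24711 in replicate 3.

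The samples form 1 group, 3 biological replicates, without a contrasting condition. Each was a collection of embryos of 0 to 16 h, males and females together, from a stable transgenic line that carries tin fused at its C terminus to GFP, and the precipitating antibody was directed against GFP per the description in the labels, whose antibody field names tin. Chromatin came from all tissues and stages together, so strong occupancy in few cells and weak occupancy in many cannot be told apart. The lists hold peak caller scores and no read counts, so the depth is unknown. Scores of different lists were not set against each other, and peaks are described by their rank in a list, with rank 1 for the highest score.

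In the fly embryo each larval body wall muscle is seeded by a founder myoblast. A particular combination of transcription factors in that founder, called muscle identity factors, sets the size, shape, position and innervation of the muscle. Tinman acts upstream, since it is first made throughout the early mesoderm and later kept in its dorsal part, where heart, gut muscle and dorsal body wall muscle arise. Its known DNA site reads TCAAGTG or TTAAGTG.

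Sequence at the summits is shown first for the highest-scoring IDR peak of each gene that had one and could be shown, in dm6 sequence of the RefSeq Release 6 assembly, plus strand. A Tinman site, TCAAGTG or TTAAGTG on either strand, is in capitals. The summit at Six4 (3L, 20798566 to 20798626) and those at Poxm (3R, 8334145 to 8334205) and Ptx1 (3R, 30912554 to 30912614) held none, while the one in eya (2L, 6531151 to 6531251) is shown over 101 bases because it held more than 1.
Six4: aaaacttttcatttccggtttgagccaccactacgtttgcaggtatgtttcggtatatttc
Poxm: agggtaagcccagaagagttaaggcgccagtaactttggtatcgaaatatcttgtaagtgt
Ptx1: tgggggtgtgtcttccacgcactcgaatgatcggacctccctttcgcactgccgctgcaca
eya: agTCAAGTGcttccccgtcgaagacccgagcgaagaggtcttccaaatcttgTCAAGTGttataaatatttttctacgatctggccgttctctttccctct

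A pair of weaker entries, which did not reach the IDR list, is added because each had a Tinman site close to its summit. They were chosen after their values were seen. The first lay at the Six4 promoter (3L, 20792832 to 20792892) and the second in a Ptx1 intron (3R, 30917630 to 30917690).
Six4 promoter: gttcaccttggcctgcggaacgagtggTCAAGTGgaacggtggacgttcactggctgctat
Ptx1 intron: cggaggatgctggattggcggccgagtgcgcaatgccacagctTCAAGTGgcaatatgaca

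IDR peaks lay within 10 kb of 6 of the 10 genes. Poxm, kn, vg, Six4, Ptx1 and eya had at least 1, and ap, sd, Kr and lms had none. Among all 13945 protein-coding genes 68.1% had an IDR summit in such a window, so the share of these genes with a peak was near the background. Within the windows 10 of 111 pooled entries were IDR peaks (9.01%, Wilson 95% interval 4.97 to 15.8, counting error only), against 18.4% of all 30000 pooled entries. The best pooled entry per gene had a median rank of 5182 over the 10 genes and of 2368 over the 12851 protein-coding genes that had any entry. The interval treats the entries as independent, though some overlap each other and share replicate entries. With 1 group of samples these shares are descriptions and no test was made.

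Only a part of the 10 IDR peaks was nearest to a muscle gene. For 5 of them the nearest transcription start site (TSS) of a protein-coding gene was that of the muscle gene in whose window they lay, and for the other 5 it was that of a neighbour (Nmda1, BEAF-32 or tzn). Poxm, kn, Ptx1 and eya, 4 of the 10 genes, had an IDR peak nearest to their own TSS, against 25.8% of protein-coding genes. An IDR summit within 500 bp of an own TSS was found at 2 of the 10, Poxm and Ptx1, against 24.3%. One inside the gene body was found at 2 of the 10, kn and eya, against 12.8%. Counted by peak, 7 of the 10 summits were within 500 bp of some protein-coding TSS, 2 were in introns and 1 was intergenic, while 49.3% of all IDR summits were within that distance.

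**Figure D1:**
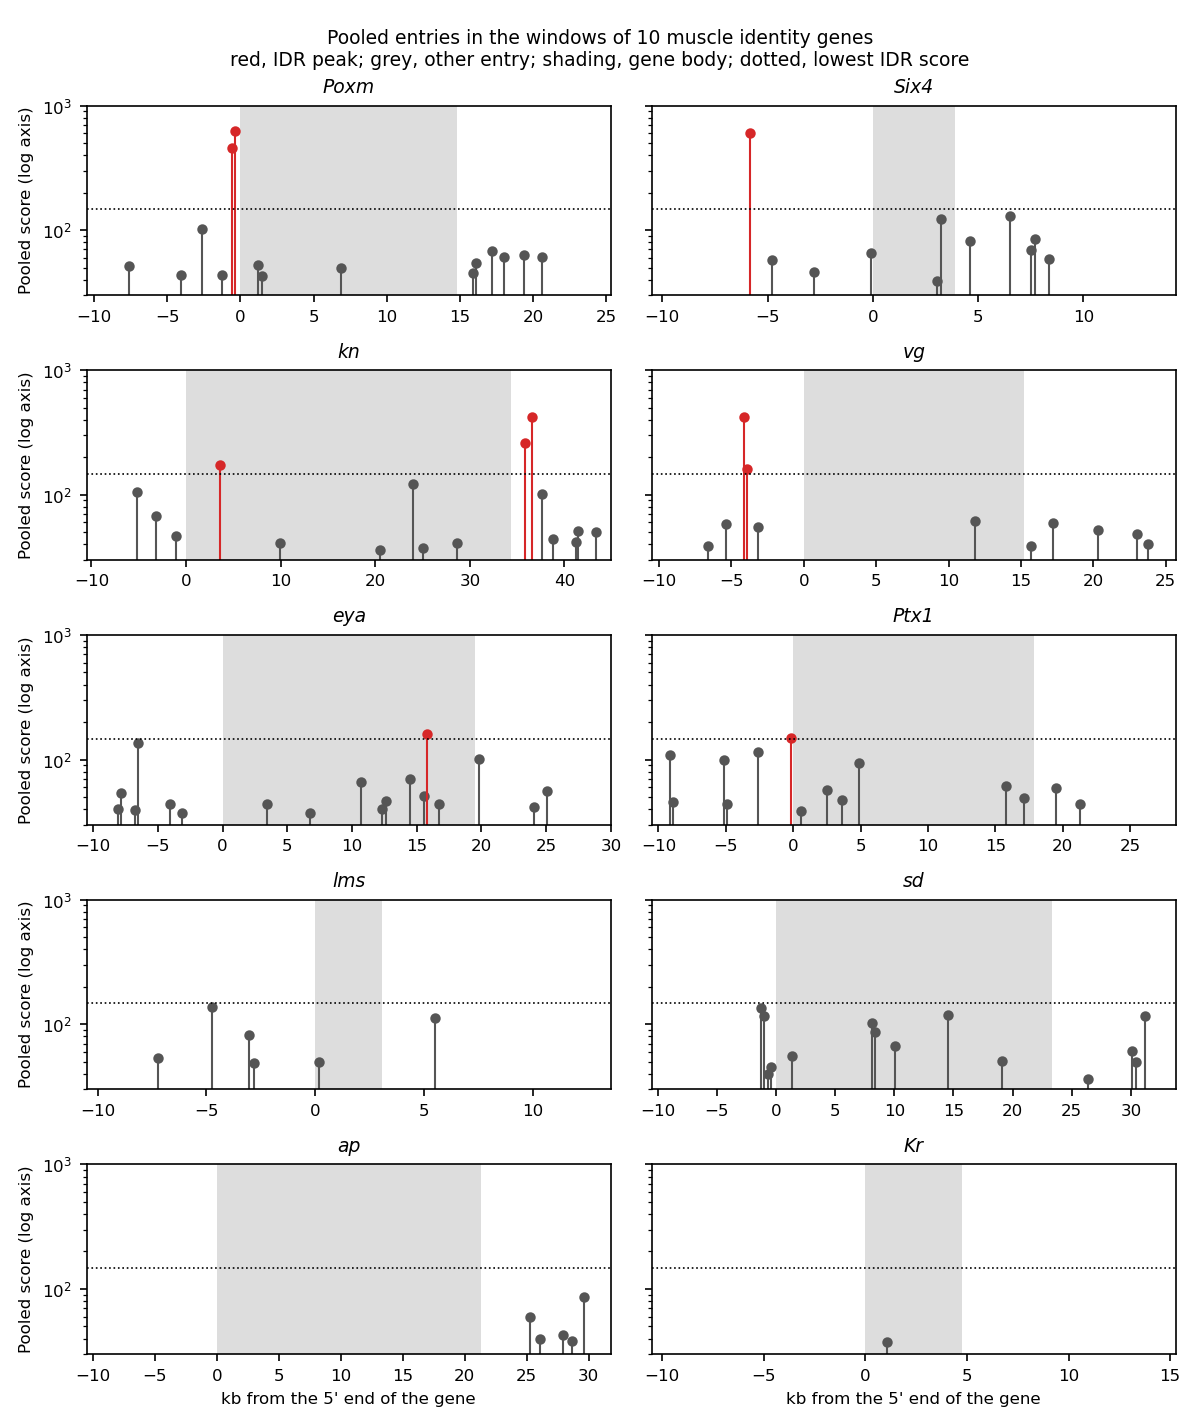
Pooled entries in the window of each gene, with distance from the 5' end of the gene in kb along its direction of transcription on the x axis and the pooled score on a log y axis. IDR peaks are red, other entries grey, the gene body is shaded and the dotted line is the lowest IDR score, 147.0. The 10 red peaks lie just upstream of Poxm and Ptx1, inside kn and eya, and at neighbouring genes beside kn, vg and Six4.

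Poxm, which encodes a paired-domain factor needed for a subset of ventral and lateral muscles, had the highest-scoring IDR peak of the 10 windows. It spanned positions 8334050 to 8334291 of 3R. The summit was 383 bp upstream of the nearest Poxm TSS, and the peak had a score of 618.8 and rank 594 in the pooled list. Replicates 1, 2 and 3 ranked it 586, 767 and 518, a mean of 623.7 ± 128.7 (SD, n = 3). The replicates placed it close together, and 16.9% of all protein-coding genes had a better best entry within 10 kb.

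A neighbouring Poxm peak, from 8334290 to 8334468, had its summit 582 bp upstream of the TSS, a score of 457.7 and rank 1076. Its replicate ranks were 998, 767 and 1787. In replicate 2 the highest-scoring overlapping entry was the same for both peaks, so their ranks are not separate observations there. Replicate 2 had 2 of its top 5508 entries in the window, and whether both lay at these peaks was not tested. A GATAA match, the core of the site of GATA factors, was within 50 bp of the summit of the weaker peak, and neither peak held a Tinman site. The other 13 pooled entries in the Poxm window ranked from 8315 downwards. Those of ranks 8315 and 22797 each held a Tinman site, centred 146 and 30 bp from the summit. The gene body, 14.8 kb long, held 3 entries and no IDR peak.

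By the replicate ranks of their best IDR peak, the protein-coding genes most like Poxm were Bacc, HemK2 and Pgk. These share 1 peak on 2L from 2759638 to 2759973, ranked 610, 796 and 533 in the replicates, as do 10 genes in all, and the order among them is alphabetical. The sum over the 3 replicates of absolute differences in log2 rank from the Poxm peak was 0.153. The next peak in likeness, shared by 4 genes including PIG-Q, had a sum of 0.210.

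Six4 and eya encode partner proteins, a Six-class homeodomain factor and the Eyes absent co-activator that it recruits, and both are needed in the mesoderm for muscle development. In the Six4 window the IDR peak, on 3L from 20798475 to 20798723, did not lie at Six4. Its summit was 5819 bp upstream of the Six4 TSS and 49 bp from a TSS of the neighbour tzn. The score was 602.8 and the rank 620, and the replicate ranks were 168, 1913 and 1406, a mean of 1162.3 ± 897.7 (SD, n = 3). Replicate 1 alone placed it near the top of its list, and over the other 2 replicates the mean rank was 1659.5.

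At Six4 itself a weak entry had its summit 85 bp upstream of the TSS, with a score of 65.9 and rank 13567. Replicate 1 ranked it 6998 and replicate 2 ranked it 14040, and no entry of replicate 3 overlapped it. A TCAAGTG was centred at this summit, at distance 0. The summit is the midpoint of this 430 bp entry, so the distance is not finely measured. Of all pooled entries, 0.560% had a site centred within 5 bp of the summit. A pair of overlapping weak entries in the Six4 intron, of ranks 6848 and 26190, also held TCAAGTG, centred 112 bp from the summit in the first and, at the nearest, 48 bp from it in the second. Both overlapped the same replicate entries, ranked 7956, 7312 and 9259.

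The IDR peak of eya lay inside the gene, on 2L from 6530986 to 6531415, in an intron and 692 bp upstream of the nearest eya TSS, which is internal to the gene. It had a score of 159.9 and rank 4977, close to the lowest IDR score of 147.0. Its ranks in replicates 1, 2 and 3 were 7648, 2111 and 12177, a mean of 7312.0 ± 5041.4 (SD, n = 3). The mean rank without replicate 2 was 9912.5. Replicate 2 alone had it among its top 5508 entries, so the peak would not be counted if both of any 2 replicates had to place it there.

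This eya peak held 3 Tinman sites, all of the TCAAGTG form, with centres 45 bp to the left, 5 bp to the right and 124 bp to the right of the summit. The last reads CACTTGA on the plus strand. Of all 5508 IDR peaks, 758 (13.8%) held at least 1 Tinman site and 10 (0.182%) held 3 or more. A site centred within 5 bp of the summit occurred in 31 IDR peaks (0.563%) and in 0.560% of all pooled entries.

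The whole eya window was rich in the letters of the Tinman site. It held 33 of them, or 8.35 per 10 kb, against 3.98 per 10 kb on the 6 main chromosome arms together. Of the 33 sites 7 fell inside a pooled entry and 3 inside the IDR peak. The window also had the most pooled entries of the 10, 18 in all, of which 9 had their summit in the gene body. Per 10 kb of window the Six4 window had slightly more, 4.60 against 4.55 at eya. Replicate 2 had 3 of its top 5508 entries in the eya window, ranked from 2111 to 5242, and replicates 1 and 3 had 0. No other protein-coding gene has a TSS in this window.

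vg and sd encode the partners of 1 complex, Vestigial being a co-activator without a DNA-binding domain of its own and Scalloped the TEAD-family protein that binds DNA. Both contribute to the identity of ventral muscles. The vg window had 2 IDR peaks, on 2R from 12879832 to 12880261 (score 418.7, rank 1282) and from 12880148 to 12880273 (score 160.0, rank 4972). Their summits lay 183 and 21 bp from a TSS of Nmda1 and 4154 and 3950 bp upstream of vg, the second in the 5' UTR of AspRS, an aminoacyl-tRNA synthetase gene that overlaps this promoter region. In each replicate the highest-scoring entry that overlapped them was the same for both, with ranks 1331, 2312 and 662 (mean 1435.0 ± 829.9, SD, n = 3). These ranks are therefore not separate observations of the 2 peaks. Replicates 1 and 2 each had 2 of their top 5508 entries in the window, and whether both lay at these peaks was not tested. The second summit had a match to the DRE, TATCGATA, within 50 bp, a sequence of housekeeping promoters found at 2.58% of IDR summits. In the body of vg, 15.2 kb long, the pooled list had 1 entry, at rank 14802.

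The sd window, on X around a gene from 15804370 to 15827682, had 14 pooled entries and no IDR peak. The best, on X from 15802887 to 15803316, ranked 6010 with a score of 136.2, and replicates 1, 2 and 3 ranked it 7138, 9083 and 4842. Its summit was 1268 bp upstream of sd and nearer, 133 bp, to a TSS of PGRP-LE, a peptidoglycan recognition gene. Inside sd an intronic entry of rank 7034 lay 680 bp downstream of an internal sd TSS, with replicate ranks of 9041, 7994 and 6443. An entry in the 5' UTR of an sd transcript, 158 bp from its TSS, had rank 8387 and replicate ranks of 10006, 5040 and 19800. Of the 14 entries 9 were overlapped in all 3 replicates, some of them by the same replicate entry, and 0 of the 14 held a Tinman site.

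kn, also called collier, encodes a COE-family factor that specifies a single dorsal body wall muscle in each segment. The kn window had 3 IDR peaks on 2R. The strongest, from 14770285 to 14770544 (score 419.1, rank 1276), and the next, from 14771183 to 14771346 (score 262.5, rank 2603), lay 45 and 33 bp from TSSs of BEAF-32, which encodes an insulator protein and lies just beyond the 3' end of kn. The replicate ranks were 1330, 2164 and 915 for the first and 2180, 2710 and 1640 for the second. All these ranks were inside the top 5508. The second peak, whose summit is in the 5' UTR of BEAF-32, had a Tinman site centred 35 bp from it.

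The third kn peak was in an intron of kn itself, from 14803242 to 14803671, 3604 bp downstream of the TSS, with a score of 175.0 and rank 4507. In replicates 1, 2 and 3 it ranked 7302, 2850 and 5715, a mean of 5289.0 ± 2256.4 (SD, n = 3), and replicate 2 alone had it in its top 5508, which replicate 3 missed narrowly. It held no Tinman site, and the 101 bases at its summit had 28.7% GC. Another intronic entry, of rank 6852, was placed evenly by the replicates at 8047, 7068 and 7111 but lay outside the IDR list.

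**Figure D2:**
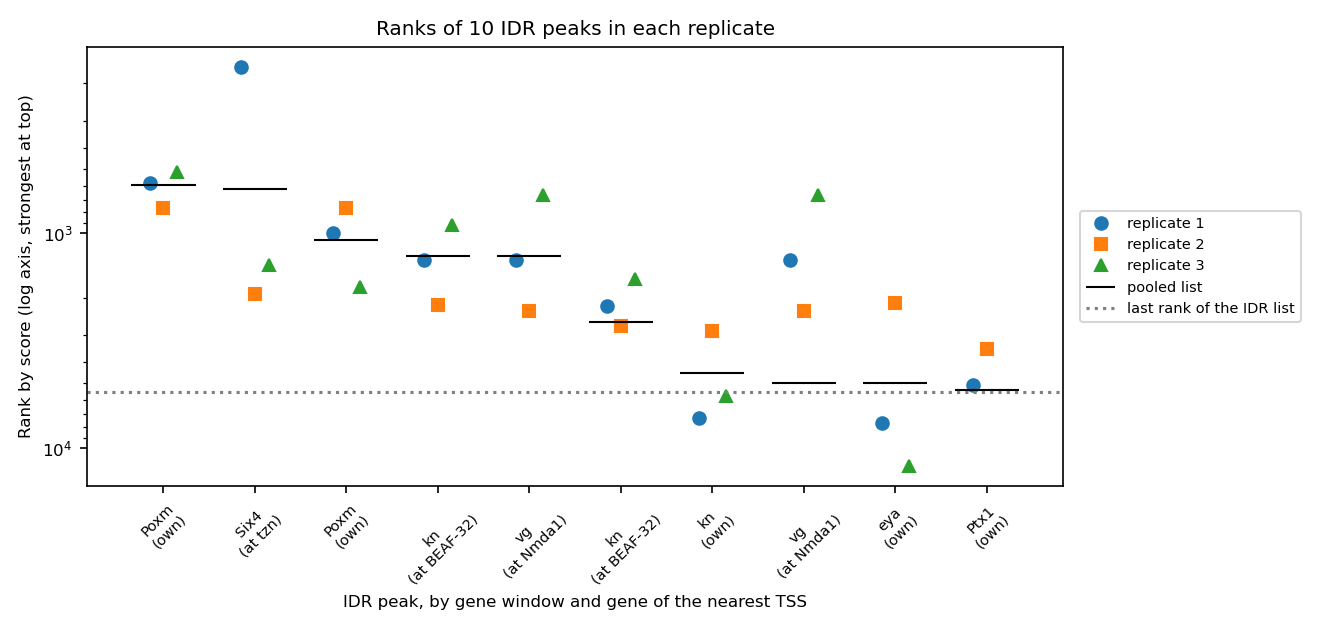
Rank of each of the 10 IDR peaks in the list of replicate 1, 2 and 3 and in the pooled list, on a log axis with the strongest at the top. The x axis names the gene window and the gene of the nearest TSS. The replicates lie close together at the stronger Poxm peak. The peaks inside kn and eya are in the top 5508 of replicate 2 alone. The Ptx1 peak has no entry in replicate 3.

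Ptx1, lms and ap encode homeodomain proteins, of the paired-like, NK-related and LIM classes, that mark ventral muscles (Ptx1) or lateral muscles (lms and ap). The Ptx1 IDR peak was at its own promoter, on 3R from 30912369 to 30912798, with the summit 170 bp upstream of the TSS. The score was 149.7 and the rank 5387, near the end of the IDR list. Replicate 1 ranked it 5125 and replicate 2 ranked it 3482, and replicate 3 had no entry there. Its summit sequence, shown above, was rich in G and C, with 61.4% GC over 101 bases against a median of 34.7% over all IDR summits.

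The Ptx1 window had 13 further pooled entries. Of these, 3 upstream entries, 2650, 5127 and 9130 bp from the TSS, had ranks of 7237, 8651 and 7843, and each was overlapped in all 3 replicates. An intronic entry of rank 9198, 4906 bp downstream of the TSS, held 2 TCAAGTG sites, the nearer centred 16 bp from the summit. Its replicate ranks were 21151, 8091 and 10454, so replicate 1 placed it far lower than the others did.

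At lms the best pooled entry, on 2R from 20551924 to 20552353, ranked 5967, just outside the IDR list. It lay 49 bp from a TSS of BORCS7 and 4738 bp upstream of lms. It ranked 6492, 4029 and 12818 in the replicates, highest in replicate 2, and the mean rank without replicate 2 was 9655.0. Replicate 1 instead placed an entry at the Mgat1 promoter highest in the window, at rank 4195, where replicate 3 had no entry. At the lms promoter itself the pooled entry ranked 19277.

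The gene ap had no pooled entry in its body of 21.3 kb and none in the 10 kb upstream. All 5 entries of the window lay downstream of the gene, around Cndp2 and vlc, and the best of them, 25 bp from a TSS of Cndp2, ranked 9979. Replicate 1 ranked it 6870, well above the 16131 and 16811 of replicates 2 and 3. A best pooled entry of higher rank was found at 79.7% of all protein-coding genes. Replicates 1, 2 and 3 had 7, 10 and 1 entries in the ap window. The best of replicate 2, at rank 7307, overlapped none of the 5 pooled entries.

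Kr, a zinc finger gene known both as a gap gene and as an identity factor of several muscles, had the least signal of the 10. The window, on 2R around a gene from 25226611 to 25231394, held 1 pooled entry, in coding sequence 1083 bp downstream of the TSS, with a score of 37.8 and rank 27415. Replicates 1 and 2 ranked it 23913 and 29058 and replicate 3 had 0 entries in the window. Replicate 2 had 5 entries there, more than the other lists, the best at rank 9780. Yet the window held 18 Tinman sites, or 7.26 per 10 kb, and 0 of them fell inside a pooled entry. A median protein-coding gene had 7 pooled entries in its window.

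**Figure D3:**
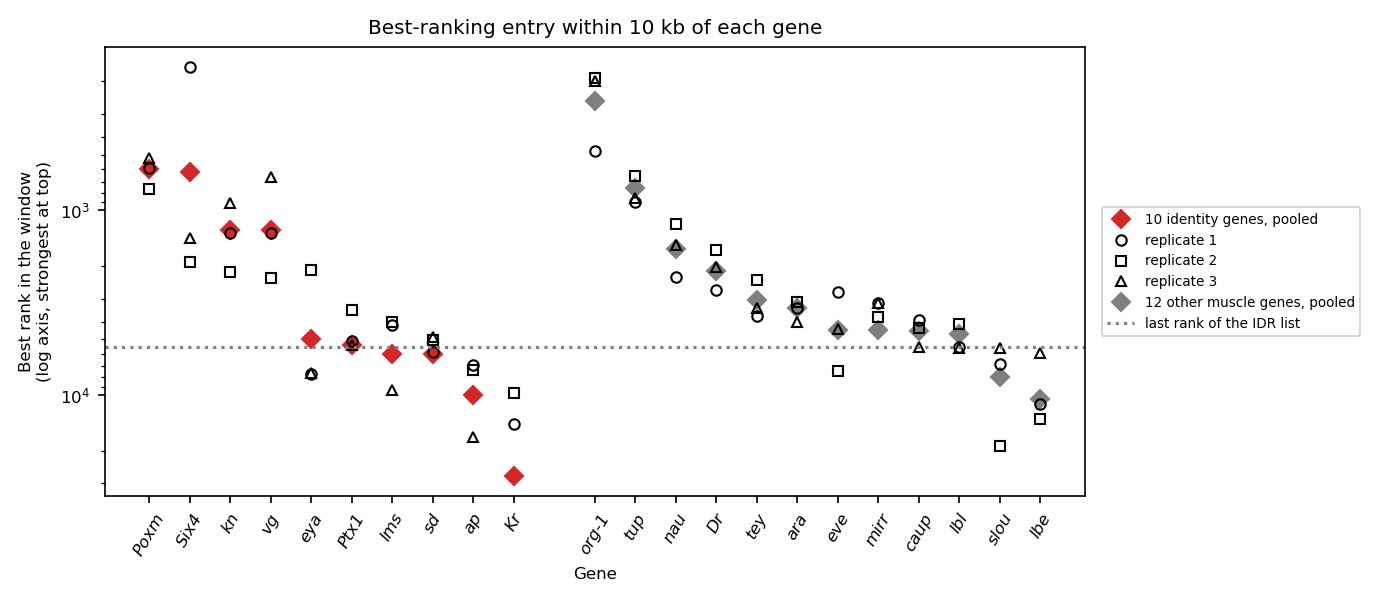
Rank of the best entry in the window of each of the 10 genes (red diamonds) and of 12 further muscle identity genes (grey diamonds) in the pooled list, with the best rank in each replicate as open symbols, on a log axis with the strongest at the top. The dotted line is the last rank of the IDR list, 5508. Of the 10 genes 6 lie above it, and Kr, without an entry in replicate 3, lies lowest.

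Over all 10 windows the replicates repeated the IDR peaks about as often as elsewhere, by an overlap of at least 1 bp. An overlapping entry among the top 5508 was present in all 3 replicates for 7 of the 10 peaks, against 72.5% of all IDR peaks. The 3 exceptions were the peaks in kn, eya and Ptx1. With an overlap of at least 50% of the peak the count was 5 in place of 7. The share over all IDR peaks at that overlap is not given here. Among the 7, the vg peaks shared their best replicate entries and the Poxm peaks shared that of replicate 2. All 5 peaks at neighbouring genes were among the 7, and the other 2 were those of Poxm. Of the 111 pooled entries, 46 were overlapped by an entry in every replicate list (41.4%, against 46.0% of all pooled entries), 36 in 2 replicates, 25 in 1 and 4 in none. Entries of the pooled list were spread over gene bodies (35), upstream (38) and downstream (38) flanks, and for 43 of 111 the nearest TSS was that of the muscle gene.

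**Figure D4:**
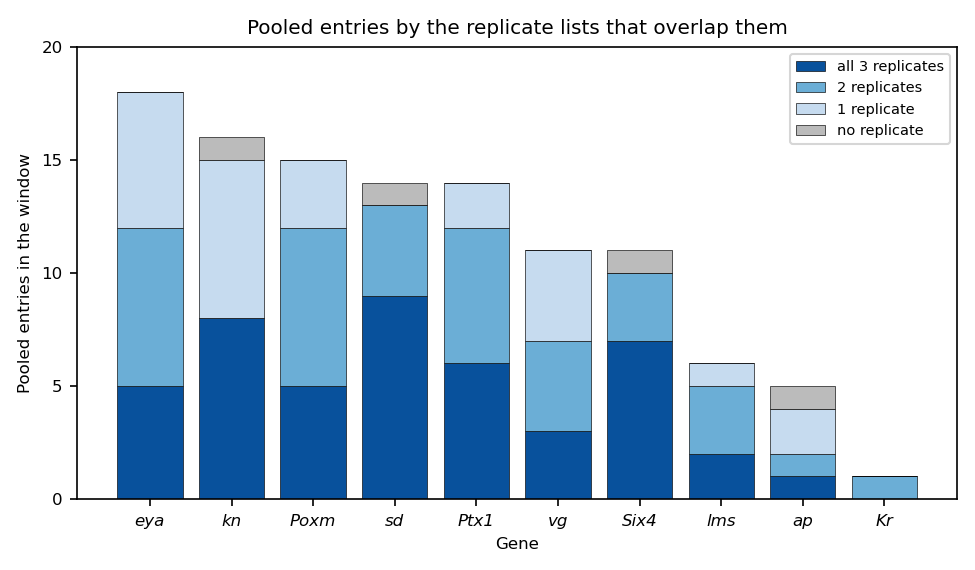
Number of pooled entries in each window, stacked by how many of the 3 replicate lists have an overlapping entry. eya has 18 entries with 5 found in all replicates, sd has 14 with 9, and Kr has 1, found in 2 replicates.

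Tinman sites were about as frequent at the pooled summits of these windows as in the whole pooled list, and the 10 IDR peaks are too few to set a share by. A site was within 50 bp of the summit for 2 of the 10 IDR peaks (eya and BEAF-32) and 5 of the 111 pooled entries (4.50%), against 4.23% of all IDR summits and 4.36% of all pooled summits. In windows centred 500 bp to the left and right of the 111 summits it was present in 8.11% and 4.50%. The 10 windows held 156 sites, 4.35 per 10 kb, of which 20 fell in a pooled entry (12.8%) and 4 in an IDR peak (2.56%). On the 6 arms these shares were 9.85% and 1.58% of 53223 sites. Such shares rise with the length of sequence that the entries cover, which was not compared. No preference for the site can therefore be read from them. Of the 4 sites in an IDR peak, 3 lay in the eya peak. The GATA site GATAA was at 20.7% of the 111 summits (18.9% of all pooled summits), the Mef2 site at 2.70% (3.54%), the DRE at 1.80% (1.33%) and the E-box CANNTG at 37.8% (40.7%). The Scalloped site GGAATG was at 8.11% (4.36%), and in the windows 500 bp to the left and right of the same 111 summits at 8.11% and 5.41%. Its share at the summits thus equalled that on the left and was above that on the right. These shares rest on 9, 9 and 6 windows. At the 10 IDR summits the Scalloped site was found 0 times. Both strands were searched, and every TCAAGTG contains an E-box match. A match of letters is not a measured binding site.

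The 12 other muscle identity genes gave 22 IDR summits among 138 pooled entries (15.9%), counted per gene. Of these genes 10 had at least 1 IDR peak, and 5 had one nearest to their own TSS. Their best entries had a median rank of 3908.5. nau, a MyoD-family factor gene, had 5 IDR peaks, more than any of the 10, the best at rank 1617 inside the gene. All 5 were nearest to a TSS of a neighbour (CG10300, CG10301 or CG10365). The best entries of org-1, tup, Dr and tey ranked 256, 753, 2131 and 3068. Those of ara, eve, mirr, caup and lbl ranked 3379, 4438, 4463, 4474 and 4666. Of these, the entries of ara, eve, mirr and lbl were nearest to a TSS of another gene. slou and lbe, with best ranks of 8018 and 10482, had no IDR peak.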

How the data were processed

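The dm6 lists alone were used, since gene coordinates were at hand for that build; dm3 versions were not analysed here. Per the notes deposited with the samples, the replicate and pooled lists hold peaks and background as input for IDR. No aligner, peak caller or IDR threshold is stated in the labels or notes used here. Values are the authors' deposited score of the signal column, with an unstated normalization. IDR peaks have a median width of 430 bp, and in nearly all entries of that width the summit is the midpoint, which limits how finely it is placed.

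Entries were assigned by summit (window 10 kb), and ranks are by score within a list. Alternatives changed the window, TSS distance, overlap, motif and replicates. A replicate rank is that of its highest-scoring entry overlapping by at least 1 bp. Genes and TSSs came from Ensembl release 115 (protein-coding genes on 6 arms) and sequence from RefSeq. Python 3.11.15, pandas 2.3.3 and numpy 2.4.6 were used, and the counting was tested on simulated data. No p-value was computed.

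The text names all 10 genes, every IDR summit in their windows (else the best entry), the gene of its nearest TSS, 12 further muscle genes, and the 3 genes nearest in replicate ranks to the top member. The genes, lists and settings were chosen with earlier results of these data known.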

Additional observations from a re-analysis of the deposited data

How the results depend on the processing

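The counts depended on the window. With gene bodies alone, 2 genes had an IDR summit, from 2 peaks, of which 0 were near a TSS, 0 had a top entry in all 3 replicates and 1 had a Tinman site. With 2 kb there were 6 summits, 3 near a TSS and 3 in all replicates, and with 20 kb these were 23, 18 and 19. Shares over all genes at 2 or 20 kb, or with a replicate left out, are not given here. Whether other genes change alike was not tested. Among IDR peaks above the median score of their list 6 summits were left, 1 with a Tinman site. Leaving out a replicate, by keeping peaks with a top entry in both others, gave 4 to 5 genes, 7 to 8 summits, 6 to 7 near a TSS and 1 with a Tinman site. Without replicate 1, 2 or 3 alike, the site lost was in eya. Of the 53 alternative values for the 6 counts and shares, 37 stayed within 1.5 times the count or inside the interval of the share. For the best entries, the mean rank over the other 2 replicates was set against the pooled rank, which is another quantity. Without replicate 1 it was over 1.5 times the pooled rank for Six4 (1659.5) and ap (16471.0), without replicate 2 for eya (9912.5) and lms (9655.0), and without replicate 3 for Six4 (1040.5). It crossed rank 5508 for eya without replicate 1 (7144.0) or 2, and for lms without replicate 3 (5260.5). The lists give no depth, so a gene without an IDR peak is not shown to lack Tinman.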
